A study of Homo sapiens with 6 samples.

Results

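The genes described here are glycosyltransferases, chosen as those that start, branch, extend and sialylate mucin-type sugar chains, though several act on other acceptors. They were taken by symbol as the numbered GALNT, GCNT, B3GNT, B3GALT, B4GALT, B4GALNT, ST3GAL, ST6GAL, ST6GALNAC and ST8SIA genes together with A4GALT, C1GALT1 and C1GALT1C1, and fucosyltransferases were left out. Of 29744 gene symbols in the count table, 70 matched, and 49 of these reached 1 CPM (counts per 1e6 counts) in at least 2 of the 6 libraries. The study measured total RNA of 3 cultured gastric tumor lines. The labels' protocols speak of MKN45 and derivative cells. HER2R is labelled as resistant to a T cell bispecific antibody (TCB) against HER2, and its cell line name is MKN45-HER2. Whether that name marks an added HER2 transgene, which would then be part of every difference from MKN45, is not stated in the labels. CEAR, with the cell line name MKN45-CEAR, is labelled as resistant to a TCB against CEACAM5. MKN45, a gastric adenocarcinoma line, is labelled as sensitive. Each line gave 2 libraries, all were grown in the same medium, and the labels list no treatment at harvest. The labels do not say whether a resistant line is a clone or a pool, or whether its 2 libraries are separate cultures. The p-values therefore reflect the spread of these libraries alone, which may be technical.

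Mucin-type O-glycosylation begins in the Golgi, where a polypeptide GalNAc-transferase (GALNT) links N-acetylgalactosamine (GalNAc) to serine or threonine, which makes the Tn antigen. C1GALT1, helped by its chaperone C1GALT1C1 (Cosmc), adds galactose to form core 1, the T antigen, and a GCNT enzyme can branch this into core 2. B3GNT and B4GALT enzymes lengthen the branches, and sialyltransferases cap them. The stomach surface is covered by such chains on secreted and membrane mucins, and truncated or sialylated forms are familiar markers of gastric carcinoma. Several members act on other acceptors, among them B4GALNT1 and A4GALT, which build the head groups of gangliosides and globosides.

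Libraries held 39657353 to 57964246 counts, so that 1 count was worth 0.0177 to 0.0255 CPM. Markers of gastric epithelial tumor cells summed to 8696 to 15176 CPM in every library, and all 7 had counts in each line. In CEAR against MKN45 the tight junction gene CLDN18 was called higher and the other 6 were not called, with log2 fold changes of -2.30 to 0.03. In HER2R against CEAR, EPCAM was called higher and CLDN18 lower, and in HER2R against MKN45 none of the 7 was called. With the replicate number as a block, 1 of the 7 was higher and 2 lower in HER2R against MKN45, and likewise in CEAR against MKN45. HER2R against CEAR gave 2 higher and 2 lower with this block, which called 25.8% to 38.2% of all tested genes per comparison. T cell markers summed to at most 0.373 CPM, with 0 counts of CD3D and CD2 in all lines, and endothelial markers to at most 0.252 CPM. The leukocyte list summed to 358 to 1218 CPM, nearly all of it lysozyme (LYZ), which was called lower in HER2R than in MKN45 with a log2 fold change of -1.42 (SE 0.233, edgeR adjusted p = 0.0192), while PTPRC had 0 counts in HER2R and CEAR and 1 count in all in MKN45. The fibroblast list summed to 7.41 and 3.45 CPM in HER2R, 1.89 and 1.15 CPM in CEAR, and 1.73 and 0.927 CPM in MKN45. Most of it was COL1A1 (log2 fold change of 2.22 in HER2R against MKN45, edgeR adjusted p = 0.0564), and DCN had 0 counts in all lines. The block called COL1A1 higher in HER2R than in either other line. The part of these markers in the results was not tested. Levels below are CPM on totals scaled by TMM factors, except where the rule or a marker sum is given. A gene is called changed when edgeR's quasi-likelihood test, adjusted over all 14958 tested genes, gave an adjusted p under 0.05.

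Of the 21 matching genes below the level rule, 15 had 0 counts in all 6 libraries, which allows up to 0.0518 to 0.0756 CPM depending on the library. They included ST8SIA1, the GD3 synthase that commits gangliosides to the b-series. ST3GAL5, the GM3 synthase that stands at the entry of ganglioside synthesis, was among the others with 10 and 23 counts in HER2R, 10 and 2 counts in CEAR, and 38 and 16 counts in MKN45. Next to the limit, the second-highest library held 1.03 CPM for B3GNT7, 1.28 CPM for B3GALT4 and 1.29 CPM for B3GNT4 inside, and 0.571 CPM for ST3GAL5, 0.151 CPM for GALNT16 and 0.124 CPM for ST6GALNAC3 outside. Among the 49 members, 41 were at 1 CPM or more in all 6 libraries. A4GALT, B3GNT7, GCNT4 and B3GNT4 passed through 1 line only, so a difference between lines was built into their selection.

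The summed level of the 49 genes was nearly even across lines, at 2537 and 2489 CPM in HER2R, 2435 and 2613 CPM in CEAR, and 2456 and 2333 CPM in MKN45. Single steps differed between the lines. The core 2 branching enzyme GCNT1 was 3.05-fold lower in HER2R than in MKN45 and 5.87-fold higher in CEAR than in MKN45. The ganglioside enzyme B4GALNT1 went the other way, 2.69-fold higher in HER2R than in MKN45 and 2.40-fold lower in CEAR than in MKN45. The core 1 chaperone C1GALT1C1 was 2.34-fold lower in CEAR than in MKN45. The globoside enzyme A4GALT was 5.57-fold higher in HER2R than in MKN45, but it passed the level rule through HER2R alone, which built a difference into its selection. In bulk RNA, fewer cells with a transcript and less transcript per cell cannot be told apart.

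In HER2R against MKN45, 8 of the 49 members were called, 5 higher and 3 lower, and 41 were not. This is 16.3% of members, beside 9.74% of all tested genes (4.89% higher and 4.85% lower). Without the 4 members that passed through 1 line, 7 of 45 were called. In CEAR against MKN45, 6 members were called, 4 higher and 2 lower, which is 12.2% beside 6.19% of all tested genes (2.57% higher and 3.62% lower), and 4 of the 45 were called. In HER2R against CEAR, 8 members were called, 5 higher and 3 lower, which is 16.3% beside 14.1% of all tested genes (7.32% higher and 6.75% lower), and 6 of the 45 were called. The 3 comparisons share libraries, both resistant lines being set against the same 2 MKN45 libraries. The median log2 fold change over the members was 0.07, -0.08 and 0.08 in these 3 comparisons, against -0.02, 0.00 and 0 over all tested genes. With the replicate number as a block, 25, 19 and 24 members were called, beside 33.7%, 25.8% and 38.2% of all tested genes. All 22 calls kept their direction in every alternative and were called with that block, but only GCNT1 in CEAR against MKN45 and GCNT1 and B4GALNT1 in HER2R against CEAR were also called without any 1 library. In all, 14 members were called in at least 1 comparison, and 35 were called in none, of which 23 were called in some comparison with the block. The like share of all tested genes, called in at least 1 comparison, was not computed. Where the block calls a member's result given below that the fit without it does not, its log2 fold change is given beside it. Comparisons of a gene that are not given below may also be called with the block.

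**Figure D1:**
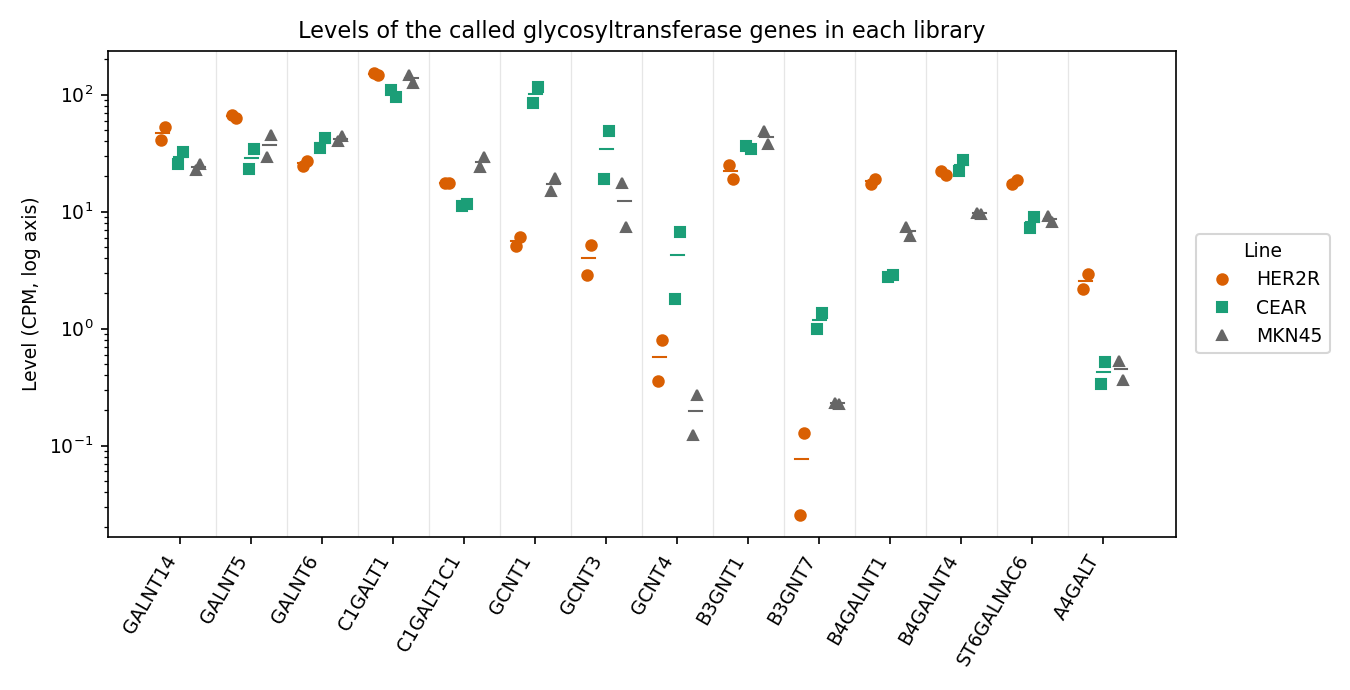
Level in CPM (log axis) of the 14 members called in at least 1 comparison, with a point per library and a short line at the mean of each line's 2 libraries. GCNT1 stands at 5.12 and 6.07 CPM in HER2R, at 84.4 and 116 CPM in CEAR and at 15.0 and 19.2 CPM in MKN45, and the lines do not overlap.

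Among the 12 GALNT genes of the initiation step, GALNT14 rose and GALNT6 fell in HER2R against MKN45, and none of the 12 was called in CEAR against MKN45. With the replicate block 2 were higher and 5 lower in HER2R against MKN45, 1 higher and 1 lower in CEAR against MKN45, and 3 higher and 5 lower in HER2R against CEAR. Over all tested genes the block called 33.7%, 25.8% and 38.2% in these comparisons. The step as a whole summed to 1019 and 922 CPM in HER2R, 1041 and 955 CPM in CEAR, and 982 and 931 CPM in MKN45, with no gap between the lines. GALNT14, an isoenzyme known for glycosylating death receptors and for sensitivity to the death ligand TRAIL (chromosome 2, 30910467 to 31155202, minus strand of GRCh38), was at 41.3 and 53.3 CPM in HER2R, 25.5 and 32.6 CPM in CEAR, and 22.9 and 25.5 CPM in MKN45. Both HER2R libraries lay above all others. Against MKN45 it rose in HER2R by 0.97 on the log2 scale (SE 0.197, edgeR adjusted p = 0.0328), and CEAR gave 0.27 (SE 0.196, edgeR adjusted p = 0.483). GALNT6, which glycosylates mucin 1 and fibronectin in breast cancer cells (chromosome 12, 51351247 to 51392867, minus strand), was at 24.7 and 26.9 CPM in HER2R, 34.7 and 42.2 CPM in CEAR, and 39.9 and 44.2 CPM in MKN45. Both HER2R libraries lay below all others, while CEAR and MKN45 overlapped. Its log2 fold change in HER2R against MKN45 was -0.70 (SE 0.158, edgeR adjusted p = 0.0426).

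GALNT5, another initiating isoenzyme (chromosome 2, 157257598 to 157314211, plus strand), differed between the resistant lines. It was at 66.8 and 63.5 CPM in HER2R, 23.0 and 34.5 CPM in CEAR, and 29.4 and 45.3 CPM in MKN45, so that CEAR and MKN45 overlapped and HER2R lay above both. The log2 fold change was 1.18 in HER2R against CEAR (SE 0.269, edgeR adjusted p = 0.0363) and 0.80 in HER2R against MKN45 (edgeR adjusted p = 0.107; called with the replicate block, at 0.85). GALNT1, a widely expressed isoenzyme, had the highest mean CPM of the members over the 6 libraries, although ST6GAL1 exceeded it in CEAR library 2 and B3GNT3 in MKN45 library 2. It was at 304 and 226 CPM in HER2R, 377 and 261 CPM in CEAR, and 278 and 187 CPM in MKN45. In each line library 1 was the higher, and the ranges overlapped, while each CEAR library lay above the MKN45 library of the same number. It was called in no comparison without the replicate block, and with it in CEAR against MKN45, at 0.46. The 9 uncalled GALNT genes averaged 10.6 CPM (GALNT18) to 272 CPM (GALNT1) over the 6 libraries. The GALNT14 call ended without either HER2R or either MKN45 library (edgeR adjusted p = 0.0894 to 0.164), the GALNT6 call without any 1 of the 6 (0.0526 to 0.207), with no filter and with the compared lines alone, and the GALNT5 call without either HER2R or either CEAR library (0.0609 to 0.148) and with no filter. In the GENCODE 29 annotation 93.2% of the exon bases of GALNT4 belong also to the readthrough gene POC1B-GALNT4, so its level is uncertain.

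The core 1 pair was lowest in CEAR. C1GALT1C1, the chaperone without which core 1 synthase is inactive and Tn antigen is left exposed (chromosome X, 120625793 to 120630150, minus strand), was at 17.4 and 17.5 CPM in HER2R, 11.2 and 11.6 CPM in CEAR, and 24.1 and 29.2 CPM in MKN45. None of the lines overlapped, and CEAR was lowest and MKN45 highest. It fell in CEAR against MKN45 with a log2 fold change of -1.22 (SE 0.170, edgeR adjusted p = 0.0147), and its log2 fold change in HER2R against MKN45 was -0.61 (SE 0.167, edgeR adjusted p = 0.0694; called with the replicate block, at -0.60). C1GALT1, the core 1 synthase itself (chromosome 7, 7156934 to 7248651, plus strand), was at 153 and 148 CPM in HER2R, 109.7 and 94.96 CPM in CEAR, and 148 and 126 CPM in MKN45. Both CEAR libraries were below all others. The test called it higher in HER2R than in CEAR by a log2 fold change of 0.56 (SE 0.142, edgeR adjusted p = 0.0483), while CEAR against MKN45 gave -0.43 (SE 0.142, edgeR adjusted p = 0.136; called with the block, at -0.43). The C1GALT1C1 call ended without either CEAR library or MKN45 library 2 (edgeR adjusted p = 0.0615 to 0.0761). The C1GALT1 call ended without any 1 of the 6 libraries (0.0562 to 0.226) and was not made by limma-voom, the legacy quasi-likelihood method, library size alone, no filter or the compared lines alone.

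Branching enzymes showed the widest spread of the steps with more than 1 member. Their summed level was 20.3 and 20.6 CPM in HER2R, 111 and 176 CPM in CEAR, and 46.4 and 36.2 CPM in MKN45, with no overlap. GCNT1, the core 2 branching enzyme known best from leukocytes (chromosome 9, 76419850 to 76651203, plus strand), was at 5.12 and 6.07 CPM in HER2R, 84.4 and 116 CPM in CEAR, and 15.0 and 19.2 CPM in MKN45. HER2R lay below and CEAR above MKN45, each clear of the others. The log2 fold change was -1.61 in HER2R against MKN45 (SE 0.229, edgeR adjusted p = 0.0127), 2.55 in CEAR against MKN45 (SE 0.223, edgeR adjusted p = 0.00371) and -4.16 in HER2R against CEAR (SE 0.244, edgeR adjusted p = 0.0012). GCNT1 in HER2R against MKN45 lost its call without either HER2R library or MKN45 library 2 (edgeR adjusted p = 0.0511 to 0.0993). In CEAR against MKN45 its adjusted p was at most 0.0243 without any 1 library, and in HER2R against CEAR at most 0.023.

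GCNT3, the mucin-type branching enzyme of digestive epithelia, which makes core 2 and core 4 (chromosome 15, 59594875 to 59640239, plus strand), was at 2.88 and 5.18 CPM in HER2R, 19.2 and 49.1 CPM in CEAR, and 17.5 and 7.34 CPM in MKN45. HER2R was lowest and CEAR highest, but the libraries of a line differed widely. It was called lower in HER2R than in CEAR with a log2 fold change of -3.08 (SE 0.625, edgeR adjusted p = 0.0281), and in neither resistant line against MKN45 (edgeR adjusted p = 0.141 for HER2R and 0.19 for CEAR), though the replicate block called it lower in HER2R than in MKN45, at -1.72. The GCNT3 call in HER2R against CEAR ended without either HER2R library or CEAR library 2, the log2 fold change being -2.25 without the last. Limma-voom did not make that call. GCNT4, another core 2 enzyme (chromosome 5, 75025346 to 75030899, minus strand), was at 0.357 and 0.791 CPM in HER2R, 1.81 and 6.70 CPM in CEAR, and 0.124 and 0.273 CPM in MKN45. It was above 1 CPM only in CEAR, where the libraries themselves were far apart. GCNT4 thus passed the level rule through CEAR alone, so a difference between lines was built into its selection. In CEAR against MKN45 it rose by 4.47 on the log2 scale (SE 0.887, edgeR adjusted p = 0.0384). Without CEAR library 1 this became 5.12, without CEAR library 2 it became 3.23 and without MKN45 library 2 it became 5.07, and the call ended without any 1 library other than CEAR library 1 (edgeR adjusted p = 0.0795 to 0.141) and with no filter, limma-voom or the compared lines alone.

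GCNT2, which makes the I branch of blood group antigens on long lactosamine chains, was not called in any comparison by the main edgeR fit. The replicate block called it in CEAR against MKN45, at -1.25, and in HER2R against CEAR, at 1.09. It was at 11.9 and 8.57 CPM in HER2R, 5.71 and 3.98 CPM in CEAR, and 13.8 and 9.35 CPM in MKN45, with CEAR below both other lines. Divided by exon length, the 4 GCNT genes together held 2.38 and 2.54 CPM per kb in HER2R, 13.0 and 21.8 CPM per kb in CEAR, and 5.86 and 4.29 CPM per kb in MKN45. GCNT1 made up 23.3% and 25.8% of this per-length level in HER2R, 70.0% and 57.7% in CEAR, and 27.7% and 48.4% in MKN45. GCNT2 made up 55.4% and 37.1% in HER2R, 4.82% and 2.01% in CEAR, and 25.9% and 24.0% in MKN45. The leading branching enzyme per length was thus GCNT2 in both HER2R libraries and GCNT1 in both CEAR libraries, and it differed between the MKN45 libraries.

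**Figure D2:**
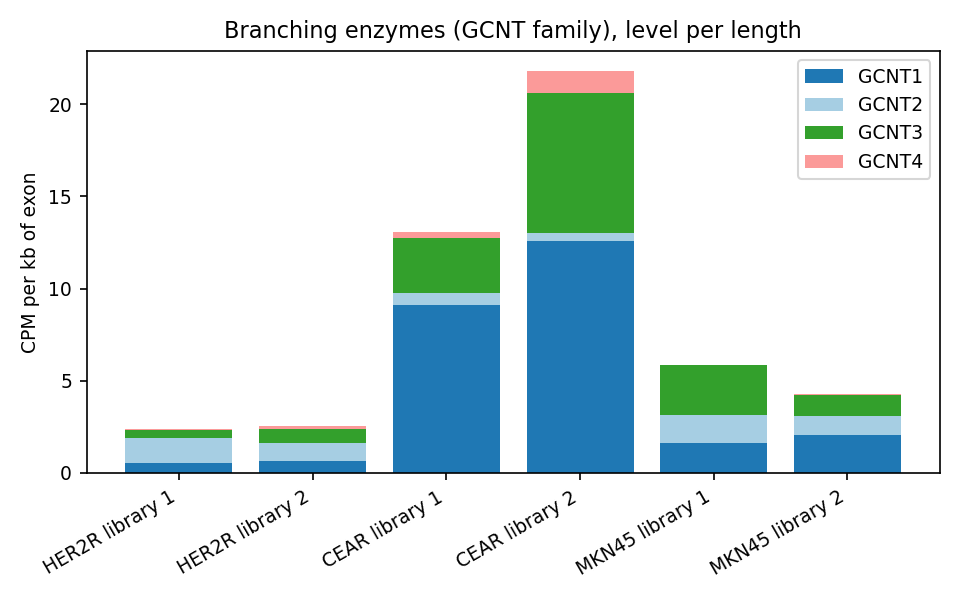
Level of the 4 GCNT genes in CPM per kb of exon, stacked for each of the 6 libraries. The stack reaches 13.0 and 21.8 CPM per kb in CEAR, where GCNT1 is the main layer, against 2.38 and 2.54 in HER2R and 5.86 and 4.29 in MKN45.

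GCNT1, GCNT3 and GCNT4 had lower levels in both HER2R libraries than in either CEAR library, but GCNT4 passed the level rule through CEAR alone. The main edgeR fit called this difference for GCNT1 and GCNT3 but not for GCNT4 (edgeR adjusted p = 0.054). For GCNT4 it was called with the replicate block, at -2.85, with DESeq2 and with library size alone. Because of this difference, the promoters of these called branching enzymes are shown. Each is the 250 bases before a RefSeq transcription start (GRCh38.p14), written 5′ to 3′ on the gene's strand, with capitals at the GC box GGGCGG on either strand. RefSeq gives 4 starts for GCNT1, and the window with the highest share of G and C is shown (chr9:76458932-76459181, plus strand); which start was used was not measured. The GCNT3 window lies at chr15:59611533-59611782 on the plus strand. The GCNT4 window lies at chr5:75052559-75052808 on the minus strand, upstream of the GENCODE 29 gene.
GCNT1: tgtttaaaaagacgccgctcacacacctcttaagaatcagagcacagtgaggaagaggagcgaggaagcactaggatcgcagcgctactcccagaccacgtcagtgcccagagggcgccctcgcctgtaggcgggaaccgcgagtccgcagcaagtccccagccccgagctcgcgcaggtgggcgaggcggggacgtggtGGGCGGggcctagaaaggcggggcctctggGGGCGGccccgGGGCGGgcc
GCNT3: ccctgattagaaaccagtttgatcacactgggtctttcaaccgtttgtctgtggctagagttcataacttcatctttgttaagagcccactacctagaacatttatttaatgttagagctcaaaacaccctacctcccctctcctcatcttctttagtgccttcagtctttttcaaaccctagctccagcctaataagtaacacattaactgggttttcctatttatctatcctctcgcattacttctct
GCNT4: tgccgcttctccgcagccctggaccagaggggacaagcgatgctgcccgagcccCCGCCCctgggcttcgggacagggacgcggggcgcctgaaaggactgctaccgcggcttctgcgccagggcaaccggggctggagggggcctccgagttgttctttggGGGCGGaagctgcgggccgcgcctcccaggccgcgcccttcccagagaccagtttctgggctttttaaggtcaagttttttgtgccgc
The GC box, a motif made of G and C, was found 3 times in this GCNT1 window, which was itself picked for its G and C share, with its first base 50, 20 and 9 bases before the start, and at 196 and 88 bases before the start in GCNT4. The GCNT3 window held none and was 40.4% G and C, beside 68% for GCNT1 and 68.4% for GCNT4. The other 3 GCNT1 windows held 0, 1 and 0 GC boxes, at 48.8%, 54.4% and 38.8% G and C. Of all RefSeq promoter windows of this length, 42.6% hold a GC box. TATAAA (in 10.7% of all windows), TGANTCA (6.57%), TTCNNNGAA (6.57%) and CACGTG (6.34%) were searched on both strands and had no match in these 3 windows, which says only that these letters are not there.

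Of the 18 extension enzymes, 16 were called in no comparison, 9 of them in some comparison with the replicate block. Per comparison, the block called 25.8% to 38.2% of all tested genes. The 18 were grouped by gene family, and some, such as B3GALT4, B3GNT7 and the B3GNT1 row, act on chains other than mucin-type ones. The summed level of the 18 was 799 and 852 CPM in HER2R, 716 and 762 CPM in CEAR, and 844 and 801 CPM in MKN45. B3GNT3, which extends core 1 chains and was the highest of the group, was at 169 and 172 CPM in HER2R, 149.6 and 185 CPM in CEAR, and 193 and 208 CPM in MKN45. MKN45 lay just above both resistant lines, and the log2 fold change was -0.24 in HER2R (edgeR adjusted p = 0.334) and -0.26 in CEAR (edgeR adjusted p = 0.342) against MKN45. Divided by exon length, B3GNT3 was the highest of all 49 members with a mean of 78 CPM per kb, ahead of GALNT1 with 53.1 CPM per kb, although GALNT1 led in CEAR library 1 with 73.5 CPM per kb against 65.0 CPM per kb for B3GNT3. The 16 uncalled genes averaged 0.941 CPM (B3GALT4, a GM1 ganglioside synthase) to 179 CPM (B3GNT3).

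B3GNT7, which extends the sulfated lactosamine of keratan sulfate (chromosome 2, 231395543 to 231401164, plus strand), was a low gene with 0.0255 and 0.128 CPM in HER2R, 0.988 and 1.37 CPM in CEAR, and 0.230 and 0.227 CPM in MKN45. The HER2R values rest on 1 and 5 counts. B3GNT7 passed the level rule through CEAR alone, so a difference between lines was built into its selection. HER2R lay below and CEAR above MKN45, with no overlap. The log2 fold change was 2.35 in CEAR against MKN45 (SE 0.50, edgeR adjusted p = 0.0405) and -3.90 in HER2R against CEAR (SE 0.666, edgeR adjusted p = 0.0162). The call against MKN45 ended without any 1 of the 6 libraries (edgeR adjusted p = 0.0861 to 0.178) and with 6 of the 9 other alternatives. The call between the resistant lines ended without either HER2R library or CEAR library 2 (edgeR adjusted p = 0.0752 to 0.117), with a log2 fold change of -3.19 without HER2R library 1 and -5.39 without HER2R library 2.

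The row named B3GNT1 carries an older symbol of B4GAT1, a glucuronyltransferase that builds the laminin-binding sugar of dystroglycan, and B3GNT2 has a row of its own. As B4GAT1 it lies on chromosome 11, 66345372 to 66347692, minus strand. It was at 25.2 and 19.0 CPM in HER2R, 36.5 and 34.4 CPM in CEAR, and 49.1 and 37.8 CPM in MKN45, so that no lines overlapped and HER2R was lowest. It fell in HER2R against MKN45 with a log2 fold change of -0.97 (SE 0.203, edgeR adjusted p = 0.0349), a call that ended without any 1 of the 6 libraries (edgeR adjusted p = 0.0502 to 0.174) and with the compared lines alone. B3GNT6, the core 3 synthase of digestive epithelia, was at 2.90 and 3.60 CPM in HER2R, 1.47 and 5.82 CPM in CEAR, and 0.585 and 0.750 CPM in MKN45. Both resistant lines lay above MKN45, but neither log2 fold change was called, 2.29 in HER2R (SE 0.706, edgeR adjusted p = 0.09) or 2.47 in CEAR (SE 0.695, edgeR adjusted p = 0.0918), and the replicate block called both, at 2.28 and 2.33.

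**Figure D3:**
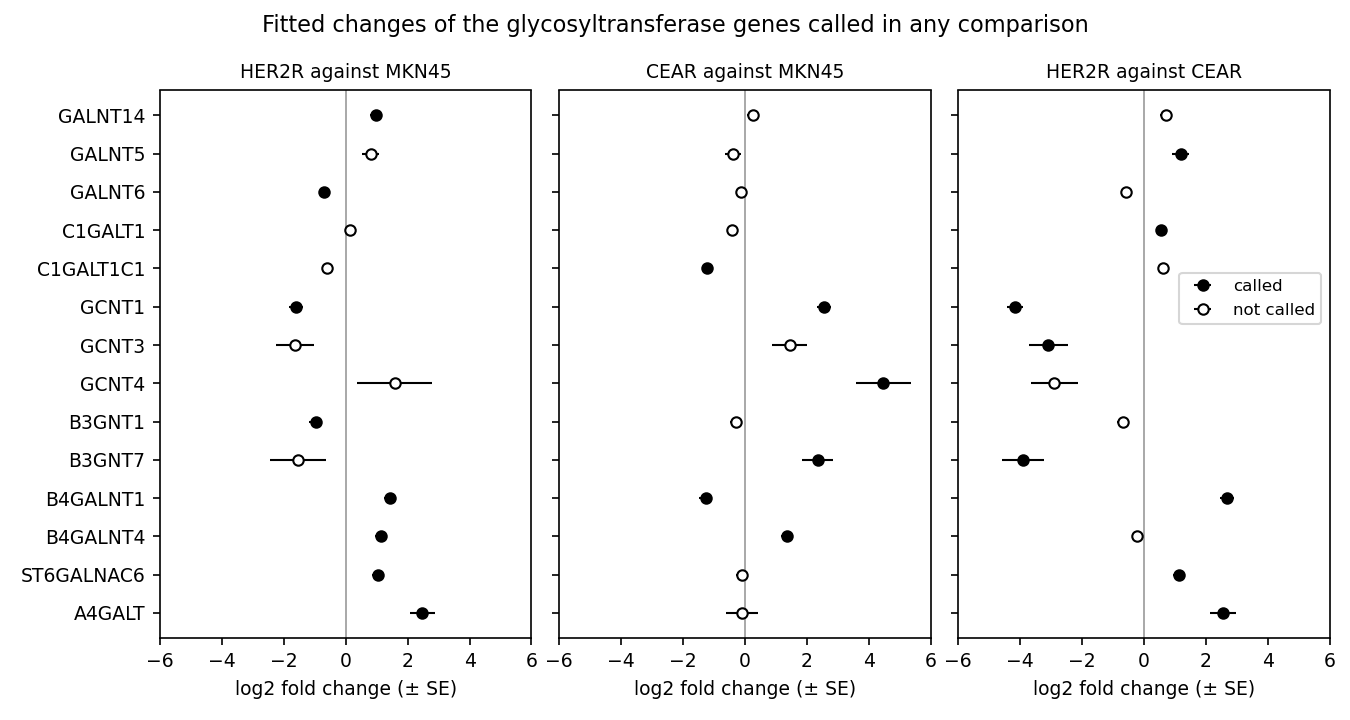
Fitted log2 fold change with its SE for the 14 members called in any comparison, in a panel for each of the 3 comparisons; filled points were called and open points were not. GCNT1 lies at -1.61 in HER2R against MKN45, at 2.55 in CEAR against MKN45 and at -4.16 between the resistant lines, and B4GALNT1 at 1.43, -1.26 and 2.69.

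The B4GALNT enzymes add GalNAc at the ends of chains, B4GALNT1 on gangliosides and B4GALNT3 and B4GALNT4 on N-acetylglucosamine to give LacdiNAc. B4GALNT1, the GM2 and GD2 synthase (chromosome 12, 57623410 to 57633355, minus strand), was at 17.4 and 19.1 CPM in HER2R, 2.75 and 2.90 CPM in CEAR, and 7.40 and 6.14 CPM in MKN45. HER2R lay above and CEAR below MKN45, with close libraries in each line. The log2 fold change was 1.43 in HER2R against MKN45 (SE 0.202, edgeR adjusted p = 0.0127), -1.26 in CEAR against MKN45 (SE 0.219, edgeR adjusted p = 0.0259) and 2.69 in HER2R against CEAR (SE 0.219, edgeR adjusted p = 0.00292). In GENCODE 29, SLC26A10 on the opposite strand covers 26.7% of its exon bases, and no source used here says whether the counting used strand. The call in HER2R against MKN45 ended without either HER2R library or MKN45 library 2 (edgeR adjusted p = 0.0655 to 0.0993), that in CEAR against MKN45 without any 1 of the 6 (0.0599 to 0.123) and with the compared lines alone, and that in HER2R against CEAR stayed at or under 0.0365.

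B4GALNT4 (chromosome 11, 369796 to 382116, plus strand) was at 22.04 and 20.5 CPM in HER2R, 22.2 and 27.5 CPM in CEAR, and 9.69 and 9.62 CPM in MKN45. All 4 resistant libraries lay above MKN45, and CEAR library 1 lay just above the HER2R libraries. On the log2 scale it rose by 1.14 (SE 0.178, edgeR adjusted p = 0.0166) in HER2R and by 1.36 (SE 0.178, edgeR adjusted p = 0.0126) in CEAR, both against the same MKN45 libraries. Between the resistant lines the log2 fold change was -0.22 (SE 0.173, edgeR adjusted p = 0.422). B4GALNT3 had the highest mean CPM of the 3 over the 6 libraries, although B4GALNT4 was higher in both CEAR libraries. It was at 36.6 and 36.3 CPM in HER2R, 16.6 and 23.3 CPM in CEAR, and 22.1 and 35.6 CPM in MKN45. CEAR and MKN45 overlapped, and the main edgeR fit called no comparison. HER2R against CEAR was called with the replicate block, at 0.90, with DESeq2 and with the compared lines alone. The B4GALNT4 call in HER2R ended without either HER2R or either MKN45 library (edgeR adjusted p = 0.0642 to 0.11), and that in CEAR without CEAR library 2 or either MKN45 library (0.0552 to 0.0641).

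Of the 9 sialyltransferases, ST6GALNAC6 was called and the other 8 were called in no comparison, 4 of them in some comparison with the replicate block. Per comparison, the block called 25.8% to 38.2% of all tested genes. ST6GALNAC6, which adds sialic acid to GlcNAc in disialyl Lewis a and to GalNAc in alpha-series gangliosides (chromosome 9, 127885321 to 127905408, minus strand), was at 17.1 and 18.7 CPM in HER2R, 7.25 and 8.97 CPM in CEAR, and 9.16 and 8.10 CPM in MKN45. HER2R lay above both other lines, which overlapped. It rose in HER2R against MKN45 by 1.05 on the log2 scale (SE 0.200, edgeR adjusted p = 0.0271), and the log2 fold change in HER2R against CEAR was 1.14 (SE 0.202, edgeR adjusted p = 0.0207). In GENCODE 29, 47.0% of its exon bases belong also to AL157935.2 on the same strand, so its counts are uncertain. Its call against MKN45 ended without either HER2R or either MKN45 library (edgeR adjusted p = 0.0777 to 0.15), and that against CEAR without either HER2R or either CEAR library (0.0679 to 0.121).

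ST6GAL1, which caps N-glycans with sialic acid and was the highest sialyltransferase, was at 229 and 199.5 CPM in HER2R, 227 and 332 CPM in CEAR, and 179 and 125 CPM in MKN45. All 4 resistant libraries lay above MKN45, but neither log2 fold change was called, 0.49 in HER2R (SE 0.245, edgeR adjusted p = 0.24) or 0.88 in CEAR (SE 0.246, edgeR adjusted p = 0.0906), the second being called with the replicate block, at 0.89. ST6GALNAC1, which makes the sialyl-Tn antigen of gastric and intestinal tumors, was at 82.2 and 80.4 CPM in HER2R, 52.6 and 60.4 CPM in CEAR, and 65.2 and 98.7 CPM in MKN45. CEAR lay below the other lines, and HER2R lay within the MKN45 range. The main edgeR fit did not call ST6GALNAC1, and the replicate block did, in CEAR against MKN45 at -0.52 and in HER2R against CEAR at 0.53. ST6GALNAC2, a sialyltransferase of core 1 chains, varied most between the libraries of a line, 5.07-fold in CEAR and 5.38-fold in MKN45. Over all 49 members the median ratio of a line's libraries was 1.20 in HER2R, 1.24 in CEAR and 1.23 in MKN45. The 8 uncalled sialyltransferases averaged 1.63 CPM (ST3GAL3) to 215 CPM (ST6GAL1).

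A4GALT, the Gb3 synthase that makes the P k antigen and the receptor of Shiga toxin (chromosome 22, 42692112 to 42721298, minus strand), was at 2.19 and 2.91 CPM in HER2R, 0.337 and 0.517 CPM in CEAR, and 0.531 and 0.364 CPM in MKN45. CEAR and MKN45 overlapped, and both HER2R libraries were above them. A4GALT passed the level rule through HER2R alone, so a difference between lines was built into its selection. The log2 fold change was 2.48 in HER2R against MKN45 (SE 0.401, edgeR adjusted p = 0.0188), -0.08 in CEAR against MKN45 (SE 0.524, edgeR adjusted p = 0.95) and 2.56 in HER2R against CEAR (SE 0.418, edgeR adjusted p = 0.017). The call against MKN45 ended without either HER2R or either MKN45 library (edgeR adjusted p = 0.0604 to 0.119) and the call against CEAR without either HER2R or either CEAR library (0.0724 to 0.107).

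**Figure D4:**
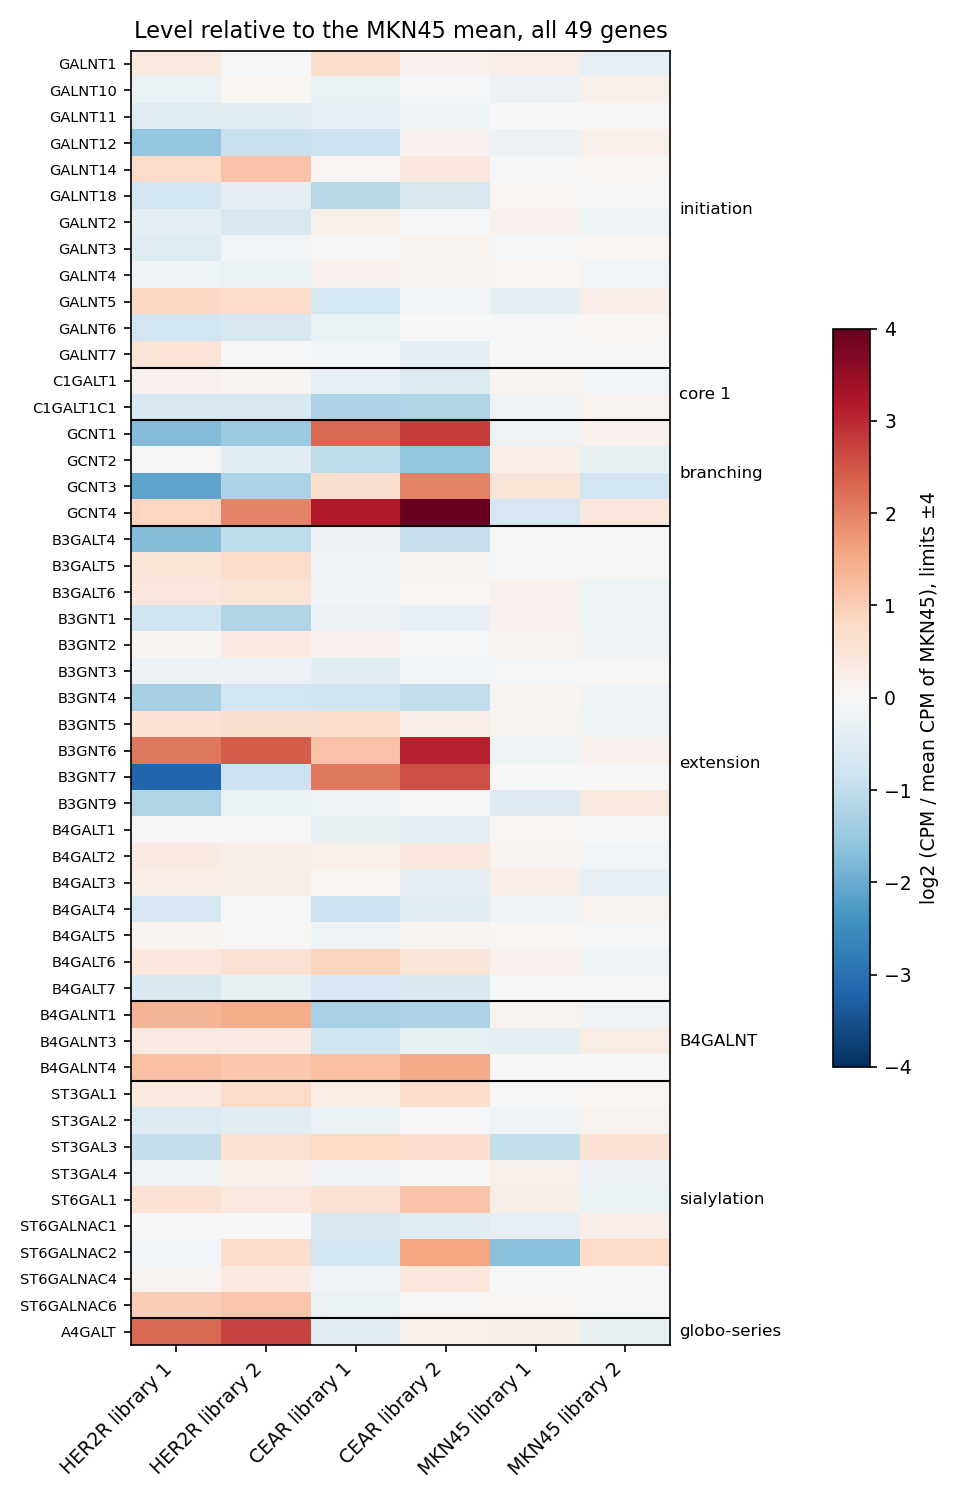
Level of all 49 members in each library as log2 of CPM over the mean CPM of MKN45, ordered by step. Colors end at 4 and -4, and the value of GCNT4 in CEAR library 2 lies beyond and is drawn at the limit. Rows of initiation and extension are mostly pale apart from B3GNT6 and B3GNT7, while GCNT1, GCNT4, B4GALNT1 and A4GALT also stand out.

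Enzymes and carriers around these steps were read from 8 lists with 88 genes, of which 75 were tested. Of the 75, 10 were called in HER2R against MKN45, 8 in CEAR against MKN45 and 16 in HER2R against CEAR, and with the replicate block 36, 32 and 39. Of all tested genes, 9.74%, 6.19% and 14.1% were called in these comparisons, and 33.7%, 25.8% and 38.2% with the block. These shares stand beside every list count below. Of 9 tested mucins, the protein carriers of the chains, none was called in HER2R against MKN45, MUC13 was called lower in CEAR against MKN45, and 1 was called higher and 2 lower in HER2R against CEAR. With the block the mucins gave 1 higher and 3 lower, 3 higher and 3 lower, and 3 higher and 3 lower in these comparisons. MUC13, a membrane mucin, was at 40.6 and 45.5 CPM in HER2R, 4.36 and 13.3 CPM in CEAR, and 48.6 and 69.3 CPM in MKN45. CEAR lay below both other lines, with log2 fold changes of -2.73 in CEAR against MKN45 (SE 0.482, edgeR adjusted p = 0.0272) and 2.28 in HER2R against CEAR (SE 0.477, edgeR adjusted p = 0.0299). Without CEAR library 1 these became -2.14 and 1.69, and without CEAR library 2 they became -3.75 and 3.30. MUC5AC, the secreted mucin of surface gastric cells, was at 0.153 and 3.32 CPM in HER2R, 99.6 and 366 CPM in CEAR, and 4.11 and 82.1 CPM in MKN45. HER2R was lowest and CEAR highest, but the libraries of each line lay far apart, most of all in HER2R and MKN45. The HER2R values rest on 6 and 130 counts. Its log2 fold change in HER2R against CEAR was -7.07 (SE 1.77, edgeR adjusted p = 0.0464), and it ran from -10.54 without HER2R library 2 to -5.85 without CEAR library 2, the call ending without any 1 of these 4 libraries (edgeR adjusted p = 0.0664 to 0.19). MUC6, a gland mucin named after its values were seen, had 0 counts in both HER2R libraries and 33 and 19 counts in CEAR, against 0 and 2 counts in MKN45.

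Glycolipid genes that neighbor B4GALNT1 and A4GALT gave 1 higher and 2 lower of 8 tested in HER2R against MKN45, 1 lower in CEAR against MKN45, and 1 higher and 1 lower in HER2R against CEAR. With the replicate block these became 2 higher and 3 lower, 1 higher and 3 lower, and 3 higher and 2 lower. UGCG, which makes the glucosylceramide from which both pathways start, was at 50.4 and 41.8 CPM in HER2R, 30.7 and 34.4 CPM in CEAR, and 23.0 and 17.7 CPM in MKN45. No lines overlapped, and it rose in HER2R against MKN45 by 1.18 on the log2 scale (SE 0.189, edgeR adjusted p = 0.018). HEXA and its activator GM2A, which break down GM2, fell in HER2R against MKN45, HEXA with a log2 fold change of -0.76 (SE 0.142, edgeR adjusted p = 0.0257) and GM2A with -0.63 (SE 0.142, edgeR adjusted p = 0.0435). GLA, the lysosomal galactosidase that degrades Gb3, was at 32.0 and 32.0 CPM in HER2R, 12.8 and 11.6 CPM in CEAR, and 36.2 and 31.7 CPM in MKN45. CEAR lay clear below the others, with a log2 fold change of -1.48 in CEAR against MKN45 (SE 0.155, edgeR adjusted p = 0.00664) and 1.39 in HER2R against CEAR (SE 0.155, edgeR adjusted p = 0.00704). GLB1, a lysosomal galactosidase acting on GM1, was called lower in HER2R than in CEAR with a log2 fold change of -0.81 (SE 0.161, edgeR adjusted p = 0.027).

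Among 10 tested genes that hold glycosyltransferases in the Golgi, 3 subunits of the COG tethering complex fell in HER2R against MKN45 and none rose, where 4.85% of all tested genes were called lower, COG6 with a log2 fold change of -1.06 (SE 0.165, edgeR adjusted p = 0.0166), COG7 with -0.88 (SE 0.174, edgeR adjusted p = 0.03) and COG4 with -0.63 (SE 0.122, edgeR adjusted p = 0.0278). In CEAR against MKN45 only COG6 was called, with -0.81 (SE 0.163, edgeR adjusted p = 0.0396), where 3.62% of all genes were called lower. In HER2R against CEAR 2 of the 10 were called, COG7 with -0.72 (SE 0.174, edgeR adjusted p = 0.0421) and COG4 with -0.56 (SE 0.122, edgeR adjusted p = 0.0319), and the other 8 were not, where 6.75% of all genes were called lower. With the replicate block 6 of the 10 were lower in HER2R against MKN45 and 3 in CEAR against MKN45, and HER2R against CEAR gave 1 higher and 3 lower. Among 7 tested capping enzymes other than members, A4GNT, which ends gastric gland mucin chains with alpha-linked GlcNAc, had 0 counts in both HER2R libraries and 1.40 and 4.61 CPM in CEAR, against 0.0709 and 0.136 CPM in MKN45. It was called higher in CEAR than in MKN45 (edgeR adjusted p = 0.042) and lower in HER2R than in CEAR (edgeR adjusted p = 0.0255). In HER2R against CEAR 2 others were called higher, the sulfotransferases CHST2 and GAL3ST2, named after their values were seen. CHST2 had 23 and 42 counts in HER2R and 1 and 6 in CEAR, and GAL3ST2 had 19 and 19 counts in HER2R and 2 and 2 in CEAR. The capping enzymes with the replicate block gave 1 higher and 2 lower in HER2R against MKN45, 1 higher and 3 lower in CEAR against MKN45, and 2 higher and 3 lower in HER2R against CEAR. CHST6, a sulfotransferase of keratan sulfate, fell in HER2R against MKN45 with a log2 fold change of -1.34 (SE 0.221, edgeR adjusted p = 0.0194).

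N-glycan processing gave 1 higher and 2 lower of 12 tested genes in HER2R against MKN45, 1 higher and 1 lower in CEAR against MKN45, and 2 higher and none lower in HER2R against CEAR. With the replicate block these became 1 higher and 4 lower, 2 higher and 4 lower, and 3 higher and 4 lower. MGAT5B, a branching enzyme of O-mannose and N-glycans, was at 3.85 and 6.02 CPM in HER2R, 0.723 and 1.53 CPM in CEAR, and 0.691 and 1.09 CPM in MKN45. HER2R lay above both other lines, which overlapped, with a log2 fold change of 2.49 in HER2R against MKN45 (SE 0.459, edgeR adjusted p = 0.0255) and 2.12 in HER2R against CEAR (SE 0.451, edgeR adjusted p = 0.0307), the second being 2.76 without CEAR library 2. The gene called lower in both resistant lines against MKN45, MAN1A1, another mannosidase, was named after its values were seen and was at 0.0510 and 0.128 CPM in HER2R, 0.434 and 0.652 CPM in CEAR, and 1.91 and 2.27 CPM in MKN45. MGAT1, which starts complex N-glycans, was the other gene called higher in HER2R than in CEAR, by 0.51 on the log2 scale (SE 0.130, edgeR adjusted p = 0.0478). MAN2A1, a Golgi mannosidase, fell in HER2R against MKN45 with -0.63 (SE 0.117, edgeR adjusted p = 0.0258), and MGAT5, which starts the branch that carries long lactosamine chains, rose in CEAR against MKN45 by 0.63 on the log2 scale (SE 0.132, edgeR adjusted p = 0.0445). Of 16 tested genes of sugar nucleotide supply, none was called in HER2R against MKN45, and NANP, a phosphatase of sialic acid synthesis, was the 1 gene called in CEAR against MKN45, at 0.90 (SE 0.187, edgeR adjusted p = 0.0433). In HER2R against CEAR, GNE, the key enzyme of sialic acid synthesis, was higher by 1.29 (SE 0.223, edgeR adjusted p = 0.0195), UAP1, which makes UDP-GlcNAc, was higher by 0.66 (SE 0.154, edgeR adjusted p = 0.0388), and NANP was lower with -0.79 (SE 0.187, edgeR adjusted p = 0.0401). The supply genes with the replicate block gave 3 higher and 6 lower in HER2R against MKN45, 1 higher and 3 lower in CEAR against MKN45, and 2 higher and 4 lower in HER2R against CEAR. NEU1, the lysosomal sialidase, was the 1 of 5 tested sialidase and O-acetylation genes called in CEAR against MKN45, at 1.81 (SE 0.329, edgeR adjusted p = 0.03), and none of the 5 was called in the other comparisons, where the block called 2 in each. Of 8 tested galectins, which bind such chains, none was called against MKN45, and LGALS2, named after its values were seen, was called in HER2R against CEAR with 0 and 1 counts in HER2R and 26 and 44 counts in CEAR. With the block 2 galectins were lower in HER2R against MKN45 and 3 higher in CEAR against MKN45, and 1 was higher and 3 lower in HER2R against CEAR. All 34 calls in these lists kept their direction in every alternative, but only that of GLA in CEAR against MKN45 was also made without any 1 library. Alternatives other than leaving out a library made 20 of the 34 calls throughout. The other 14 were lost in at least 1 of them, 10 with no filter, 11 with the compared lines alone, 5 with limma-voom and 4 with the legacy quasi-likelihood method, among them MGAT1 in HER2R against CEAR and MAN1A1 and MGAT5 in CEAR against MKN45. Besides GLA in CEAR against MKN45, 33 calls ended in some fit without 1 library (edgeR adjusted p = 0.0516 to 0.228), 32 without HER2R library 1, 33 without HER2R library 2, 20 and 21 without CEAR library 1 or 2, and 15 and 18 without MKN45 library 1 or 2.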

How the data were processed

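RNA of HER2R, CEAR and MKN45 cells was sequenced as 2 libraries per line. Per the labels' protocols, RNA was isolated with RNeasy columns, ribosomal RNA was depleted and stranded libraries were made. The authors deposited raw counts per gene symbol, whole numbers in all 6 libraries. Per the submitters' processing notes, GRCh38 and limma were used, with no version or role named. Which aligner, counter and annotation they ran, the sources used here do not give.

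The counts went into edgeR 4.0.16 (R 4.3.3; filterByExpr by line, TMM factors, 1 quasi-likelihood model of all 6 libraries with a term per line, 3 residual and 3.51 prior degrees of freedom), adjusted by the Benjamini-Hochberg method over 14958 tested genes and called at an adjusted p under 0.05. Each SE was computed as the absolute log2 fold change divided by the root of its F value. The method was tested on simulated data. Those data had independent libraries, so they cannot show how the method fares with the correlated library deviations given below. With 2 libraries against 2, an exact permutation test cannot go below p = 0.333. No library was a copy of another of its line, with a chi-square of their counts, per degree of freedom, of 60.7 in HER2R, 90.0 in CEAR and 128 in MKN45. Limits at 0 counts (3 counts) cover counting error only.

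Members and lists were chosen with earlier results of these data known. Named with values were the members called in any comparison, the highest member of each step, and up to 4 called genes per direction, comparison and list at a mean of 1 CPM or more. GCNT2, B3GNT6, ST6GALNAC1, ST6GALNAC2 and the list genes below 1 CPM were named after their values were seen. Gene positions and exon lengths are from GENCODE 29, matched by symbol for 48 members and by an older symbol for 1. Promoters are from RefSeq, which had an entry for 33 of the 49 members.

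Libraries carry the numbers 1 and 2 in the labels, with no meaning stated. Across the tested genes, library 2 minus library 1 (log scale) was correlated between lines, at 0.355 for HER2R and CEAR, 0.378 for HER2R and MKN45 and 0.545 for CEAR and MKN45. The numbers were therefore taken to pair the libraries. A fit with the replicate block is given beside most counts and beside printed test results that only it calls. Its calls in other comparisons of named genes are not all listed. Among these are GALNT14, GALNT6, C1GALT1C1 and B3GNT1 in HER2R against CEAR. Others are MUC5AC in both resistant lines against MKN45 and UGCG in CEAR against MKN45. Other alternatives were DESeq2 1.42.0, limma-voom (limma 3.58.1), RLE size factors, no filter, library size alone, a filter at 1 CPM, the libraries of the compared lines alone and leaving out each library, where the single library left in a line was taken to have the spread of the other lines. The legacy quasi-likelihood method was chosen after seeing the data.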

Additional observations from a re-analysis of the deposited data

Results flagged for a closer look

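Results are listed here because the test of the difference between the effects in HER2R and CEAR, which is the comparison of HER2R against CEAR in the edgeR fit, passed an adjusted p of 0.05. For 3 genes HER2R was lower, with a log2 fold change of -4.16 for GCNT1, -3.08 for GCNT3 and -3.90 for B3GNT7. For 5 genes HER2R was higher, with 2.69 for B4GALNT1, 2.56 for A4GALT, 1.18 for GALNT5, 1.14 for ST6GALNAC6 and 0.56 for C1GALT1. Of these, B3GNT7 passed the level rule through CEAR alone and A4GALT through HER2R alone, so a difference between lines was built into their selection. The 8 genes are 16.3% of the 49 members, near the 14.1% of all tested genes called in this comparison. Without the members that passed through 1 line, 6 of 45 were called, or 13.3%. Only the calls of GCNT1 and B4GALNT1 between the resistant lines were also made without any 1 library. GCNT1 and B4GALNT1 were also called in opposite directions in the resistant lines against MKN45, which both comparisons share.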

How the results depend on the processing

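With 2 libraries per line, calls at this depth depend on each library. All 22 called member results kept their direction in every alternative, 14 were called by every alternative that kept both libraries of each compared line, and 3 without any 1 library. With the replicate block, 25 members were called in HER2R against MKN45, 19 in CEAR against MKN45 and 24 in HER2R against CEAR, and 5040, 3861 and 5717 of all tested genes. DESeq2 called 16, 11 and 18 members and 2820, 2098 and 3432 genes. With the compared lines alone, 3 members and 405 genes were called in CEAR against MKN45. Leaving out 1 library gave 0 to 7 members and 189 to 1136 genes in HER2R against MKN45, 1 to 4 members and 253 to 428 genes in CEAR against MKN45, and 2 to 8 members and 103 to 1856 genes in HER2R against CEAR. The median log2 fold change over the members moved by less than 0.2, the SD between libraries of a line, in all 45 alternatives. Of 32 results of named members that were not called, 6 changed direction in some alternative. In HER2R against MKN45, GALNT1 was at -0.045 without HER2R library 1 and -0.077 without MKN45 library 2, and up to 0.51 in the other fits without 1 library. In CEAR against MKN45, leaving out 1 library gave -0.27 to 0.0065 for GALNT6, -0.25 to 0.054 for ST6GALNAC6 and -0.43 to 0.24 for A4GALT. In HER2R against CEAR it gave -0.51 to 0.016 for GALNT1 and -0.13 to 0.18 for B3GNT3, which was -0.049 with library size alone. The cause was not tested. Another scaling moved the median of all genes by at most 0.07.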
